A study of Mus musculus with 11 samples.

Results

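Mx1+Ocn- P-SSCs, the periosteal skeletal stem cells of the series, were compared with CD51+ BMSCs, cells sorted from bone marrow on CD51 and labelled as skeletal stem cells. The arrays were chosen by their titles: 2 of P-SSCs and 2 of CD51+ BMSCs, 4 of the 11 arrays, which cover 6 sorted populations. P-SSCs came from periosteal tissue of Mx1-Cre; Rosa-Tomato; Osteocalcin-GFP mice on a C57BL/6 background, which had been irradiated, transplanted with wild-type marrow and then given pIpC, the double-stranded RNA that switches on Mx1-Cre. They were sorted as Mx1+ (Tomato) and Osteocalcin-GFP- cells carrying CD105 and CD140a. CD51+ BMSCs came from bone marrow, and the genotype and treatment of their mice are not given in the sources used here. The labels name no sorting on CD105 or CD140a for them, although the study's results section does. By their labels both populations were sorted as CD45-, CD31- and Ter119-, which is meant to remove leukocytes, endothelial cells and erythroid cells. The CD51+ arrays went against this label for CD45: Ptprc, its gene, read 10.23 and 10.17 on them, and their pan-leukocyte genes lay nearer to the CD45+ arrays than to the P-SSC arrays. Mx1-Cre answers to interferon and is not restricted to skeletal cells. Tissue and gate differed between the populations, mouse line, treatment and sex may have, and their parts in a difference cannot be told apart. The study's methods say that RNA came from sorted cells of male and female mice. They call the arrays of a population biological repeats without saying how the mice were divided between them. The p-values describe the spread among these arrays only.

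The periosteum is the fibrous and cellular sheath of bone and holds progenitors that form bone and cartilage after a fracture. CD51 is the integrin alpha V chain, encoded by Itgav, and marks marrow stromal cells that support hematopoiesis. Kdr encodes vascular endothelial growth factor receptor 2, the main signalling receptor for VEGF-A on endothelial cells. The comparison asks how periosteal stem cells differ from a marrow population sorted on CD51.

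Values are log2 signals after RMA, which removes background, is meant to bring the arrays to one distribution and summarises each probe set. The deposited arrays did not share one: the median signal was 4.94 on P-SSC array 2 and 4.43 to 4.83 on the other 10 arrays. A difference of 1 is a factor of 2, and levels of different genes are not comparable. P-SSC array 2 stood apart. On it beta-actin, by its 3' control probe set, read 7.81, against 12.78 to 14.25 on the other 10 arrays, the median ribosomal protein gene read 6.86 against 11.47 to 12.84, and the interquartile range was 1.81 against 1.98 to 3.56. Over all probe sets it correlated with P-SSC array 1 at r = 0.456, while the CD51+ arrays correlated with each other at r = 0.993. The standard deviation within a population, as the root mean square over probe sets, was 1.33 in P-SSCs and 0.187 in CD51+ BMSCs. Values are therefore given for each array, and results for P-SSC array 1 alone stand beside those for all arrays. The median difference over all probe sets was 0.336 with both P-SSC arrays and 0.0876 with array 1 alone, while over the 18193 genes (1 probe set each) it was -0.03 and 0.00.

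Among the lists that describe cell types, P-SSC array 1 held stromal transcripts and array 2 held few. Across 31 genes of periosteum, tendon and fibroblasts the median level was 10.85 on P-SSC array 1, 11.44 and 11.79 on the CD51+ arrays, and 5.03 on P-SSC array 2. Itgav, whose product the other population was sorted on, read 10.31 and 4.23 on P-SSC arrays 1 and 2 and 10.10 and 10.27 on the CD51+ arrays. On array 1 alone the Itgav difference was 0.12 (SE 1.08, adjusted p = 0.983), and with both arrays it was -2.91 (SE 1.77, adjusted p = 0.264). P-SSC array 1 thus read above both CD51+ arrays by a difference far smaller than its SE. With 1 P-SSC array that SE holds no P-SSC spread and rests on the arrays of the other populations.

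In the limma fit over all arrays 268 of 45037 probe sets passed at an adjusted p under 0.05 (0.595%), of which 2 were higher and 266 lower in P-SSCs. At the level of genes, 152 of 18193 were lower (0.835%) and 1 was higher (0.0055%). With P-SSC array 1 alone, 216 probe sets passed, 5 higher and 211 lower, and 122 genes were lower (0.671%) and 4 higher (0.022%). Both fits shared 152 probe sets, which is 56.7% of the calls over all arrays and 70.4% of the calls with array 1. When the second arrays of P-SSCs and of BM-SSCs, the Mx1+Nestin+ marrow stem cells, were both left out, 2234 genes were higher (12.3%) and 3728 lower (20.5%), and all 152 genes that were lower over all arrays were among the latter. In that fit the lone P-SSC array is assumed to vary as little as the arrays of the other populations, so its p-values are given as counts only. BM-SSC array 2 stood apart from BM-SSC array 1, with an interquartile range of 1.98 against 3.15. Its median housekeeping gene read 7.68 against 9.52. This array is part of the spread in the fit with P-SSC array 1 alone, so a threshold missed there depends partly on it. The calls over all arrays depended on the arrays that set the spread: without either CD51+ array 0 probe sets passed, without either CD45+ array 2 passed, and in a fit of the 4 compared arrays 0 passed. At an unadjusted p under 0.05 these fits gave 2828 and 2991 probe sets (without CD51+ array 1 or 2) and 4135 (4 arrays), against 10146 with all arrays. With array weights 0 passed as well, against 6243 at an unadjusted p under 0.05.

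**Figure D1:**
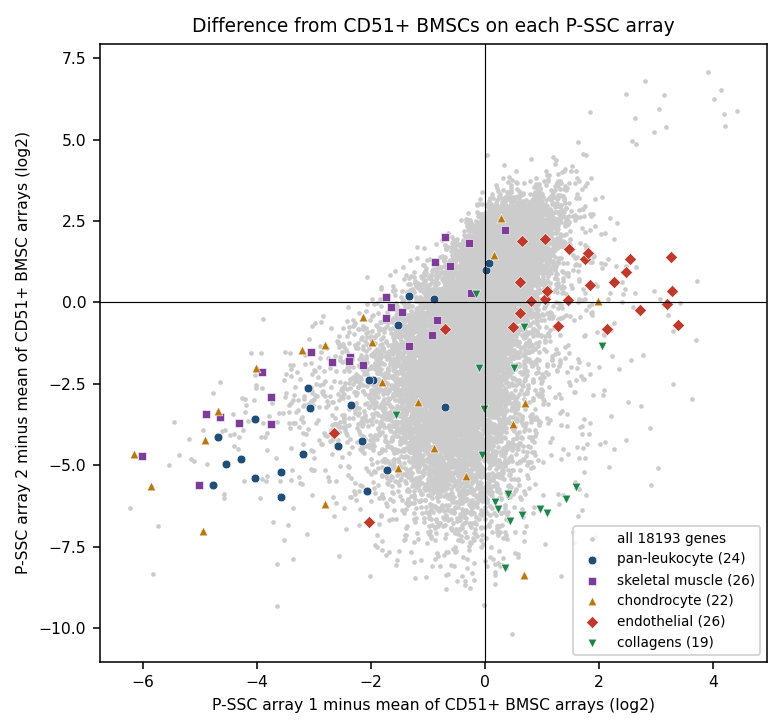
Difference from the mean of the 2 CD51+ BMSC arrays on P-SSC array 1 (horizontal axis, log2) and on P-SSC array 2 (vertical axis, log2), for 18193 genes in grey and 5 gene lists in colour. Leukocyte, muscle and cartilage genes spread to the lower left on both axes, endothelial genes lie to the right, and collagens lie near 0 on array 1 but mostly far below 0 on array 2.

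The gene lists with the most lower members were those of leukocytes, skeletal muscle and cartilage. Of 24 pan-leukocyte genes, 6 fell over all arrays and 0 rose, 22 read below both CD51+ arrays on P-SSC array 1, and 20 did so on both P-SSC arrays. Over all genes 44.8% read below both CD51+ arrays on array 1 and 35.9% on both P-SSC arrays. Of 18 ribosomal protein and 12 housekeeping genes, 17 and 11 also read below on both P-SSC arrays. Array 2, with little cellular signal, thus read low for genes of many kinds. Its low values for leukocyte, muscle and cartilage genes are therefore no separate support. Nor are its high values for other genes, as 34.5% of all genes read above both CD51+ arrays on both P-SSC arrays. The median pan-leukocyte difference was -2.47 on array 1 and -3.85 on array 2. Of 18 neutrophil and granulocyte genes 3 fell, and of 23 monocyte and macrophage genes 6 fell, against 0.835% of all genes. Members of these and all later lists were chosen with earlier results of these data known. Their shares beside those of all genes are therefore descriptive and no test.

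Olfm4, which encodes olfactomedin 4 of neutrophil granules, had the smallest adjusted p of all probe sets. It read 3.20 and 3.11 on the P-SSC arrays and 9.32 and 9.53 on the CD51+ arrays. The groups did not overlap, with a log2 difference of -6.27 over all arrays (SE 0.32, adjusted p = 0.00263) and -6.22 with array 1 alone (adjusted p = 0.0142). Its P-SSC values lay below the medians of those arrays, 4.59 and 4.94, and no detection call was used. Ifitm6, an interferon-induced transmembrane gene of myeloid cells, read 6.03 and 3.52 against 11.87 and 11.83 (difference -7.07, adjusted p = 0.0193), and with array 1 alone the difference was -5.82 (adjusted p = 0.0218). Cd177, a neutrophil surface protein, read 4.17 and 3.03 against 9.72 and 10.09 (difference -6.30, adjusted p = 0.0253). Its call was lost with array 1 alone, at an adjusted p of 0.0715.

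Receptors through which neutrophils and monocytes sense microbes were among the lower genes. Clec4e, the C-type lectin Mincle, read 5.0 and 5.55 against 10.51 and 10.59 (difference -5.27, SE 0.39, adjusted p = 0.0095). Fpr2, a formyl peptide receptor that guides neutrophils, read 5.59 and 6.26 against 10.96 and 10.96 (difference -5.03, SE 0.35, adjusted p = 0.0095). Cd14, the co-receptor for lipopolysaccharide, read 7.25 and 7.18 against 12.06 and 12.18 (difference -4.91, adjusted p = 0.0119). All 3 also passed with array 1 alone, at adjusted p between 0.0142 and 0.0281. Il1r2, the decoy receptor for interleukin 1, read 5.55 and 5.79 against 10.44 and 10.86 (difference -4.98, adjusted p = 0.0123). Itgam, the integrin chain CD11b, read 3.76 and 4.05 against 7.57 and 7.52 (difference -3.64, adjusted p = 0.0109), and Itgal, the chain CD11a, read 4.84 and 5.31 against 8.88 and 8.88 (difference -3.80, adjusted p = 0.0127). The same 3 differences with array 1 alone were -5.10, -3.78 and -4.03, at adjusted p of 0.0287, 0.0142 and 0.02.

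Several genes of enzymes and adaptors of myeloid cells passed too, although others, such as Lyz2 and Mpo, did not. Mmp8, the neutrophil collagenase, read 5.50 and 6.54 on the P-SSC arrays and 10.18 and 10.71 on the CD51+ arrays (difference -4.43, adjusted p = 0.0119). Ctss, the lysosomal protease cathepsin S, read 4.91 and 5.92 against 10.22 and 9.98 (difference -4.69, adjusted p = 0.0257). Cybb, the catalytic subunit of the phagocyte NADPH oxidase, read 6.64 and 5.21 against 11.11 and 11.34 (difference -5.30, adjusted p = 0.0474), and did not pass with array 1 alone (adjusted p = 0.144). Pglyrp1, a peptidoglycan-binding protein of granules, read 4.91 and 5.06 against 8.43 and 8.45. The leukocyte surface genes Cd53 and Cd52 read 5.71 and 6.26 against 10.23 and 10.55, and 6.71 and 6.30 against 11.16 and 11.34. Tyrobp, a signalling adaptor, read 7.25 and 6.71 against 11.40 and 11.66. All of these fell, as did Csf1r at 5.97 and 5.50 against 9.44 and 8.88 and Ccr2 at 3.64 and 4.04 against 6.72 and 6.17, by 2.60 to 4.74. With array 1 alone Mmp8, Ctss, Pglyrp1 and Cd53 passed at adjusted p of 0.0142, 0.0353, 0.0208 and 0.0403, while Cd52, Tyrobp, Csf1r and Ccr2, with differences of -4.54, -4.28, -3.19 and -2.80, did not, at 0.0851, 0.127, 0.0809 and 0.0711. Csf1r is the receptor for macrophage colony-stimulating factor, and Ccr2 is the chemokine receptor of inflammatory monocytes.

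Ptprc, which encodes the CD45 antigen used for depletion in both sorts, read 5.43 and 4.60 on the P-SSC arrays and 10.23 and 10.17 on the CD51+ arrays. It did not overlap between the populations, and the difference of -5.18 missed the threshold (adjusted p = 0.089 over all arrays and 0.257 with array 1 alone). The CD51+ arrays held pan-leukocyte genes at medians of 9.76 and 9.63, beside 11.14 and 10.99 on the CD45+ arrays and 6.16 and 5.52 on the P-SSC arrays. The part of leukocyte RNA in the differences of other genes was not tested, and in bulk samples fewer cells of a type and less RNA per cell cannot be told apart.

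Other neutrophil and myeloid genes did not pass. S100a9, a calcium-binding protein of neutrophils, read 12.65 and 10.42 on the P-SSC arrays and 14.59 and 14.66 on the CD51+ arrays. S100a8, its partner, read 12.33 and 11.94 against 14.03 and 14.03. Camp, the cathelicidin peptide, read 10.50 and 8.13 against 13.72 and 13.69, and Ltf, lactoferrin, read 9.61 and 5.86 against 13.13 and 13.16. All 4 read lower on both P-SSC arrays than on either CD51+ array. Lcn2, lipocalin 2, read 9.26 and 3.60 against 12.80 and 13.02, and Lyz2, lysozyme of myeloid cells, read 9.27 and 6.22 against 12.96 and 12.99. Mpo, myeloperoxidase of immature granulocytes, read 10.29 and 5.77 against 11.12 and 9.44, so that its array 1 value lay between the CD51+ arrays. The differences of S100a9, Camp and Ltf with array 1 alone were -1.97, -3.20 and -3.53. Over all arrays the adjusted p was 0.0855 for Lyz2 and 0.149 or more for the others of these 7 genes.

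Promoters of 2 lower myeloid genes are printed to show a short sequence found in 7 of the 9 promoters at hand for lower leukocyte genes. The 250 bases before the transcription start come from RefSeq, build GRCm38.p6, on the gene's strand, and capitals mark GAGGAA on either strand, letters that include the core recognised by PU.1 and other ETS factors.
Clec4e, chr6:123289872-123290121, minus strand: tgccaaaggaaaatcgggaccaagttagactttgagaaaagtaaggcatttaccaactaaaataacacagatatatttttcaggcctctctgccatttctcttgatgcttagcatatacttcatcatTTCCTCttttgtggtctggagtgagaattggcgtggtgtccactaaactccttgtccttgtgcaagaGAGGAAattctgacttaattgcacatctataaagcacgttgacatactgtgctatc
Itgam, chr7:128062390-128062639, plus strand: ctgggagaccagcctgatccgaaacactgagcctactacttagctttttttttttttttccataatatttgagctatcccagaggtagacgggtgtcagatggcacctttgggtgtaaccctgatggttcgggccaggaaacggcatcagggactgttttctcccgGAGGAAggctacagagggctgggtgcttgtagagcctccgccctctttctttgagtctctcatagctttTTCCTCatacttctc
Clec4e held 2 matches, which start 123 and 56 bases before the transcription start, and Itgam held 2, which start 84 and 15 bases before it. Clec4e was on none of the leukocyte lists and is not counted here. Of the 15 pan-leukocyte, neutrophil and monocyte genes that fell, 9 had a promoter in the table, and 7 of these (77.8%) held GAGGAA, as did 23.3% of all 32851 promoters. A match describes the letters of this window and does not show binding.

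Skeletal muscle genes were also lower in P-SSCs. Of 26 measured, 7 fell over all arrays and 0 rose, 24 read below both CD51+ arrays on P-SSC array 1, and 18 did so on both arrays. Over all genes 0.835% fell, and 44.8% and 35.9% read below in these ways. The median difference was -1.93 on array 1 and -1.44 on array 2. Myh1, the myosin heavy chain of fast fibres, read 2.30 and 3.60 on the P-SSC arrays and 7.79 and 8.83 on the CD51+ arrays (difference -5.36, SE 0.56, adjusted p = 0.013). Acta1, skeletal actin, read 5.59 and 5.0 against 10.12 and 11.09 (difference -5.31, adjusted p = 0.0237), and its call was lost with array 1 alone (adjusted p = 0.0699). Myl1, a fast myosin light chain, read 3.10 and 4.54 against 7.50 and 8.46 (difference -4.16, adjusted p = 0.0308). Tnni2, fast troponin I, read 4.23 and 4.83 against 8.07 and 9.02 (difference -4.01, adjusted p = 0.0148). Mylpf, a further light chain, read 4.5 and 4.51 against 7.78 and 8.72, and Tnnt3, fast troponin T, read 3.89 and 4.73 against 7.16 and 8.13. They fell by 3.74 and 3.33. With array 1 alone Myh1, Myl1 and Tnni2 passed, with differences of -6.02, -4.89 and -4.31 at adjusted p of 0.0142, 0.02 and 0.0234, while Mylpf and Tnnt3, at -3.75 and -3.75, did not (adjusted p = 0.0924 and 0.0532).

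The 2 CD51+ arrays differed among themselves in these genes, with array 2 above array 1 for each of Myh1, Acta1, Myl1, Tnni2, Mylpf and Tnnt3. The Myh1 value of P-SSC array 1 lay below the 5th percentile of all probe sets on that array, 2.46. Myh1 is measured by 3 probe sets, of which 2 were lower in P-SSCs. Asb5, a muscle gene with ankyrin repeats, read 2.26 and 4.04 against 7.87 and 7.54 (difference -4.56, adjusted p = 0.0235), with -5.45 on array 1 alone (adjusted p = 0.0142). Factors of muscle stem cells did not pass over all arrays. Myf5 read 2.35 and 3.03 against 4.94 and 4.49, with adjusted p = 0.0619 over all arrays and 0.0401 with array 1 alone, and Pax7 read 3.20 and 3.19 against 4.81 and 4.27 (adjusted p = 0.209).

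The promoter of Myh1 is shown because TATAAA, the TATA box that positions transcription starts at many tissue-specific genes, recurred among the muscle genes.
Myh1, chr11:67199852-67200101, plus strand, capitals marking TATAAA on either strand: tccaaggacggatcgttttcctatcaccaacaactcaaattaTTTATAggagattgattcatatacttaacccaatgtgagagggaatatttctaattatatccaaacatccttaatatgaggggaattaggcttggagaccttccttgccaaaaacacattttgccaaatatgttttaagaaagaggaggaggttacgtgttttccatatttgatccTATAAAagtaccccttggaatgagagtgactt
Matches start 208 and 32 bases before the transcription start. Of the 7 muscle genes that fell, 5 had a promoter in the table and 4 of these held TATAAA (80%), which 12.4% of all promoters held.

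Structural genes of cartilage were lower in P-SSCs too. Of 22 chondrocyte genes 5 fell over all arrays and 0 rose, against 0.835% lower over all genes. On P-SSC array 1, 16 read below both CD51+ arrays and 6 above, and the 16 that read below on both P-SSC arrays compare with 35.9% of all genes. Cnmd, chondromodulin of avascular cartilage, read 4.65 and 4.87 on the P-SSC arrays and 10.48 and 10.53 on the CD51+ arrays (difference -5.75, SE 0.53, adjusted p = 0.0115). Col9a1, a chain of collagen IX, read 4.82 and 6.33 against 10.61 and 11.35 (difference -5.41, adjusted p = 0.0202). Col2a1, the main collagen of cartilage, read 7.06 and 4.99 against 11.69 and 12.32 (difference -5.98, adjusted p = 0.0276), and missed the threshold with array 1 alone (adjusted p = 0.0515). Matn3, matrilin 3, read 3.97 and 4.66 against 8.51 and 9.24 (difference -4.56, adjusted p = 0.0148), and Snorc, a cartilage proteoglycan, read 5.08 and 6.43 against 9.71 and 9.80 (difference -4.0, adjusted p = 0.0271). With array 1 alone Cnmd, Col9a1, Matn3 and Snorc passed, with differences of -5.85, -6.16, -4.90 and -4.68 at adjusted p of 0.0234, 0.0188, 0.0255 and 0.0157. Col9a3 passed with array 1 alone (adjusted p = 0.0188), reading 5.0 and 7.01 against 8.73 and 9.30.

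No call was made for the Sox factors that drive chondrocyte genes, and on array 1 they read above both CD51+ arrays. Sox9 read 7.93 on P-SSC array 1 against 7.32 and 7.54, and Sox5 read 7.88 against 5.55 and 6.24, with P-SSC array 2 at 3.70 and 5.93. Comp, a matrix protein shared by cartilage and tendon, read 13.30 and 4.24 against 12.58 and 12.64. For Sox9 and Comp the difference with both arrays was negative, at -1.61 and -3.84, and that with array 1 alone was 0.50 and 0.69.

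**Figure D2:**
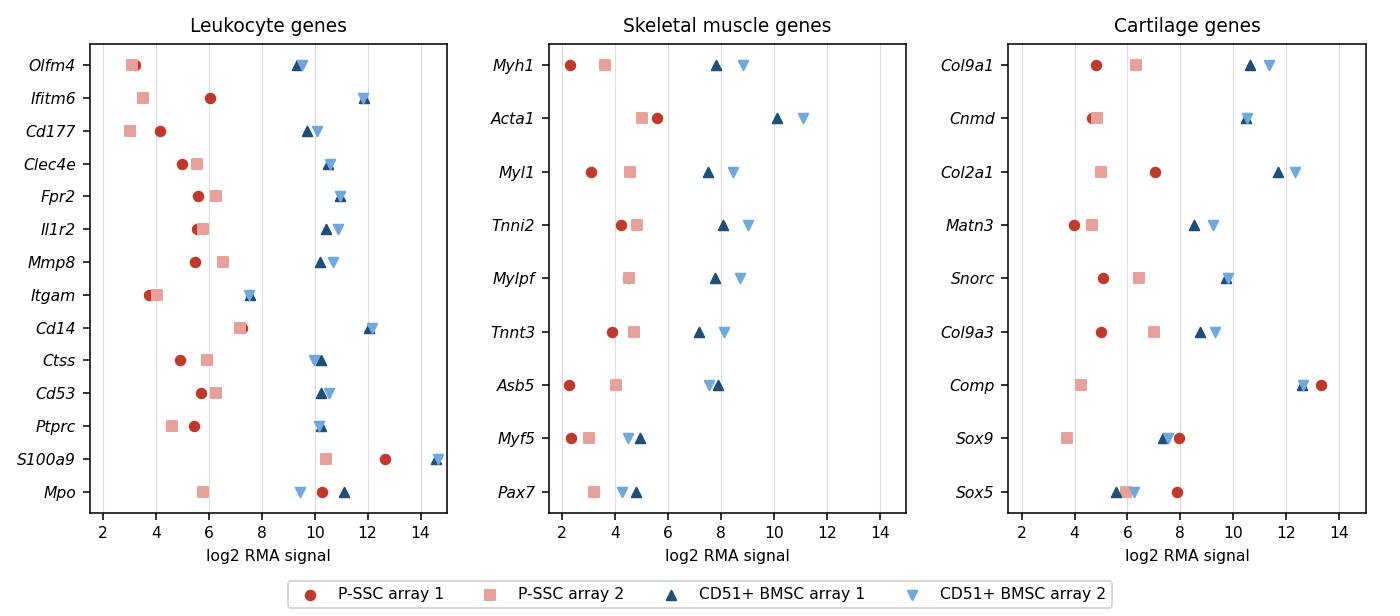
Log2 RMA signal (horizontal axes) of leukocyte, skeletal muscle and cartilage genes (rows) on each P-SSC and CD51+ BMSC array; each point is 1 array. For Olfm4 both P-SSC arrays lie at 3.20 and 3.11 and both CD51+ arrays at 9.32 and 9.53, whereas for Mpo P-SSC array 1 lies between the CD51+ arrays and for Sox9 and Comp it lies above them by less than 1 log2 unit.

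A few lower genes lay outside these groups. Tek, the angiopoietin receptor of endothelial and some stromal cells, read 5.37 and 4.0 on the P-SSC arrays and 7.91 and 8.12 on the CD51+ arrays (difference -3.33, adjusted p = 0.0341). Wnt2, a Wnt ligand, read 4.04 and 4.73 against 7.25 and 7.80 (difference -3.14, adjusted p = 0.0291). Dgat2, which makes triglycerides, read 6.78 and 6.91 against 9.67 and 9.86 (difference -2.92, adjusted p = 0.0143). Each of these 3 also passed with array 1 alone, with differences of -2.64, -3.49 and -2.98 at adjusted p of 0.0353, 0.0346 and 0.0218. Wnt2 was 1 of 31 Wnt pathway genes and Dgat2 was 1 of 16 adipocyte and lipid genes to pass over all arrays, where no gene of either list was higher. Over all genes 0.835% were lower. On array 1 the median difference was -0.06 for the Wnt list and 0.42 for the adipocyte and lipid list.

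Kdr, the VEGF receptor gene, read higher on both P-SSC arrays than on the CD51+ arrays. It read 8.55 on P-SSC array 1, 7.36 on array 2, and 5.89 and 6.14 on the CD51+ arrays, so the populations did not overlap. With both P-SSC arrays the difference was 1.94 (SE 0.43) and did not pass (adjusted p = 0.13). With array 1 alone it was 2.54, a factor of 5.81. That fit holds no P-SSC spread, so the call made there for Kdr rests on the arrays of the other populations. Array 2, with little cellular signal, is no separate support. Over all genes 34.5% read above both CD51+ arrays on both P-SSC arrays. Kdr is measured by 1 probe set with a single symbol. Its promoter is shown because Kdr marks this comparison, with capitals for GGAA, the core of ETS sites, on either strand.
Kdr, chr5:75978456-75978705, minus strand: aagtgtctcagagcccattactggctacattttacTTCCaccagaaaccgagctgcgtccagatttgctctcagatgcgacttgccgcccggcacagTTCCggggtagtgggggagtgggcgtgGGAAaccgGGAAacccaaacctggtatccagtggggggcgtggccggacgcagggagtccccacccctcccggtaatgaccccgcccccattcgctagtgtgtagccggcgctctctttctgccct
The 4 matches start 215, 153, 126 and 118 bases before the transcription start. GGAA occurs in 93.4% of all promoters, so its presence does not set Kdr apart.

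Other endothelial genes were high on P-SSC array 1 in the same way. Of 26 endothelial genes, 23 read above both CD51+ arrays on array 1 and 13 did so on both P-SSC arrays. Over all genes 43.6% read above both CD51+ arrays on array 1, and 34.5% did so on both P-SSC arrays. Over all arrays 0 of the 26 rose and 1, Tek, fell, and with array 1 alone Kdr rose and Tek fell. The median difference of the list was 1.47 on array 1 and 0.22 on array 2, against 0.00 and 0.02 over all genes.

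Flt1, VEGF receptor 1, read 8.50 and 6.62 on the P-SSC arrays and 4.83 and 5.64 on the CD51+ arrays, without overlap, and its 4 probe sets were all higher in P-SSCs. Its difference of 3.27 with array 1 alone missed the threshold (SE 0.51, adjusted p = 0.0665). Ptprb, the endothelial receptor phosphatase, read 8.97 and 4.90 against 5.30 and 5.87 (array 1 alone, difference 3.39, adjusted p = 0.0546). Cdh5, the cadherin of endothelial junctions, read 7.60 and 4.64 against 4.76 and 4.99 (adjusted p = 0.0758). Aplnr, the apelin receptor, read 7.44 and 4.51 against 4.30 and 4.03, and Mmrn2, a vascular matrix protein, read 7.50 and 4.27 against 4.10 and 4.52, and neither passed (array 1 alone, adjusted p = 0.418 and 0.193). For Ptprb and Cdh5 array 2 lay below both CD51+ arrays, so the higher level was seen on array 1 and not on array 2.

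Pecam1 encodes CD31, the antigen used to deplete endothelial cells in both sorts. It read 6.34 and 4.80 on the P-SSC arrays and 3.75 and 3.98 on the CD51+ arrays (array 1 alone, difference 2.47, adjusted p = 0.0803). The Pecam1 value of P-SSC array 2 lay below the median of that array, 4.94. The median endothelial level was 6.40 and 5.22 on the P-SSC arrays, 4.79 and 4.90 on the CD51+ arrays, and 6.27 and 5.36 on the BM-SSC arrays. The part of endothelial RNA in the levels of Kdr and Flt1 was not tested. Cd34, shared by endothelial cells and stromal progenitors, went the other way at 10.03 and 5.31 against 11.999 and 12.11, and did not pass (adjusted p = 0.592 with array 1 alone).

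Ligands and co-receptors of the VEGF axis did not pass. Vegfa, the ligand of both receptors, read 7.15 and 4.65 on the P-SSC arrays and 8.54 and 8.66 on the CD51+ arrays, below them on both arrays (array 1 alone, difference -1.45, adjusted p = 0.636). Vegfc, a lymphatic growth factor, read 8.87 and 4.94 against 7.20 and 7.57. The Vegfc difference was 1.48 with array 1 alone (adjusted p = 0.422). The co-receptor Nrp1 read 9.80 and 5.73 against 9.77 and 10.05, and Nrp2 read 8.91 and 6.65 against 7.10 and 6.96. Of the 10 genes of the axis 0 passed over all arrays. The median difference of these genes was 0.54 on array 1 and -1.35 on array 2.

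The other genes that rose were few. Plppr4, a phospholipid phosphatase-related membrane protein, was the only gene higher over all arrays, reading 6.06 and 6.06 on the P-SSC arrays and 3.79 and 4.10 on the CD51+ arrays (difference 2.12, SE 0.30, adjusted p = 0.0338). With array 1 alone its adjusted p was 0.0515. Kng1, kininogen, read 9.78 on P-SSC array 1 and 4.94 on array 2, against 6.08 and 6.08 (array 1 alone, difference 3.70, SE 0.29, adjusted p = 0.0142), so array 2 lay below the CD51+ arrays. Ushbp1 read 6.34 and 4.55 against 3.85 and 4.0 (array 1 alone, adjusted p = 0.0267), and Tmem178 read 5.74 and 4.92 against 3.72 and 3.44 (adjusted p = 0.0442). Both Ushbp1 and Tmem178 were above the CD51+ arrays on each P-SSC array. Their values on array 2 lay below the median of that array, 4.94, and cannot be told from background there.

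Genes of the sorts did not pass over all arrays or with array 1 alone. Pdgfra, which encodes CD140a, read 11.28 and 4.41 on the P-SSC arrays and 11.44 and 11.79 on the CD51+ arrays (array 1 alone, difference -0.33, SE 1.39). Eng, which encodes CD105, read 8.32 and 7.59 against 7.09 and 7.39 (array 1 alone, difference 1.09, adjusted p = 0.285). Prrx1, a transcription factor of limb mesenchyme, read 10.60 and 3.60 against 10.06 and 10.41. On array 2, Pdgfra and Prrx1 read far below the CD51+ arrays while Eng read above them.

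Lepr, the leptin receptor of marrow stroma, read 10.34 on P-SSC array 1 and 3.18 on array 2, against 8.87 and 9.26. Grem1, a secreted BMP antagonist, read 9.03 and 4.86 against 5.72 and 5.73 (array 1 alone, difference 3.30, adjusted p = 0.0679). Nes and Sp7 read above both CD51+ arrays on both P-SSC arrays, Nes at 6.94 and 7.42 against 5.83 and 5.66, and Sp7, the osteoblast factor Osterix, at 6.42 and 6.81 against 5.05 and 5.26. Neither passed (adjusted p = 0.206 and 0.197). Mx1, the gene whose promoter drives the Cre, read 4.09 and 5.70 against 3.64 and 3.48. Of 23 measured sort and skeletal stem cell genes none passed over all arrays, and their median difference was 0.53 on array 1 and -2.68 on array 2. On array 1, 16 read above both CD51+ arrays (43.6% of all genes), and on both P-SSC arrays 5 did (34.5% of all genes). Array 2, with little cellular signal, gives Nes and Sp7 no separate support.

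Factors with which marrow stroma supports hematopoiesis did not pass over all arrays, and their median difference on array 1 was 0.51. Of 14 measured, 9 read above both CD51+ arrays (43.6% of all genes) and 1 below on array 1, and on array 2 the list's median lay 3.86 lower than in CD51+ cells. Cxcl12, the chemokine that retains hematopoietic stem cells, read 12.43 and 5.06 against 10.75 and 10.80 (array 1 alone, difference 1.65, adjusted p = 0.347). Vcam1, an adhesion molecule, read 10.03 and 3.85 against 8.44 and 8.20, and Kitl, stem cell factor, read 9.49 and 3.60 against 8.94 and 9.11. Adipoq, adiponectin, read 10.75 and 4.17 against 7.22 and 7.03, and Fabp4, a fatty acid carrier of fat and capillary cells, read 11.65 and 4.89 against 8.49 and 9.02. None of these passed over all arrays or with array 1 alone, and on array 2 each read below both CD51+ arrays.

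Matrix genes divided on P-SSC array 1 between higher and lower members. Tnc, tenascin C, read 10.85 on array 1 and 5.03 on array 2, against 7.67 and 7.42. Mmp13, a collagenase of bone and cartilage, read 11.86 and 3.75 against 8.89 and 8.77 (array 1 alone, difference 3.03, adjusted p = 0.0571), and Col1a1, the main collagen of bone, read 12.21 and 4.93 against 10.53 and 10.70. Of 19 collagens outside cartilage 13 read above both CD51+ arrays on array 1 (43.6% of all genes) and 0 on both arrays (34.5% of all genes). Pi16 and Mfap5, genes of fibroblasts around vessels, went the other way. Pi16 read 9.60 and 6.22 against 13.06 and 13.03, and Mfap5 read 8.94 and 4.94 against 11.99 and 12.12. Neither passed, with adjusted p = 0.106 and 0.355 for array 1 alone.

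**Figure D3:**
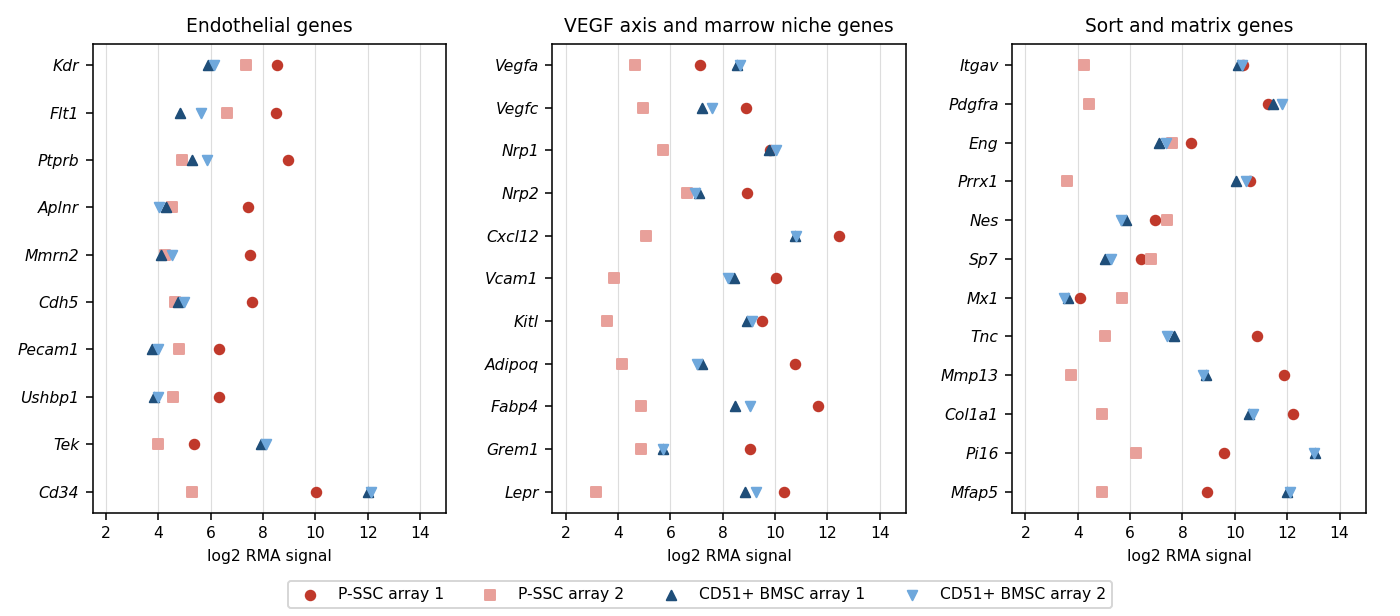
Log2 RMA signal (horizontal axes) of endothelial genes, of VEGF axis and marrow niche genes, and of sort and matrix genes (rows) on each P-SSC and CD51+ BMSC array; each point is 1 array. Kdr and Flt1 lie higher on both P-SSC arrays than on both CD51+ arrays, while Cxcl12, Vcam1, Itgav and Prrx1 lie at or above the CD51+ arrays on P-SSC array 1 and far below them on array 2.

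Hoxa5, a positional gene, read almost the same on both P-SSC arrays, at 9.18 and 9.33 against 7.33 and 7.68, and missed the threshold (difference 1.75, SE 0.30, adjusted p = 0.0615). Of 28 positional genes none passed over all arrays, and their median difference was 0.31 on array 1 and 0.04 on array 2. The interferon response genes, relevant because P-SSC mice had received pIpC, had a median difference of -0.14 on array 1, and 0 of 26 passed over all arrays. Rsad2, an antiviral gene, read 7.58 and 7.08 against 9.67 and 9.24. Sex-linked genes differed between the arrays: Xist read 11.26 and 5.67 on the P-SSC arrays and 11.54 and 11.35 on the CD51+ arrays, and the Y-linked Eif2s3y read 5.26 and 3.69 against 2.73 and 2.47, none of which passed. The Eif2s3y values of the CD51+ arrays lay near the 5th percentiles of those arrays, 2.25 and 2.26, while Xist read high on them. The sex of the mice behind each array was not tested.

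Further lists held lower genes, where 0.835% of all genes fell over all arrays. Of 24 chemokine and receptor genes 4 fell, namely Ccr2 and also Ccr1, Ccl6 and Cxcr4, the receptor for Cxcl12. Ccr1 read 4.44 and 5.09 on the P-SSC arrays and 8.81 and 9.28 on the CD51+ arrays (difference -4.28, adjusted p = 0.0115), and Cxcr4 read 4.90 and 5.11 against 8.22 and 7.92 (difference -3.07, adjusted p = 0.0401). Ccl6, a myeloid chemokine, read 5.35 and 5.2 against 9.50 and 9.87. Of 7 MHC class II genes H2-Aa, an antigen-presenting chain, fell by 3.61, at 5.86 and 4.38 against 8.94 and 8.53. Of 18 TGF-beta pathway genes Ltbp4, which binds latent TGF-beta, fell by 3.40, at 6.49 and 5.32 against 9.23 and 9.39. Of 28 cell cycle genes Ccne2, cyclin E2, fell by 2.29, at 4.11 and 4.15 against 6.43 and 6.42, and of 18 ribosomal protein genes Rpl14 fell by 3.16, at 3.45 and 3.48 against 6.70 and 6.55. Ccr1, Ccl6 and H2-Aa also passed with array 1 alone, with differences of -4.60, -4.34 and -2.87 at adjusted p of 0.0147, 0.0461 and 0.0353. Cxcr4, Ltbp4, Ccne2 and Rpl14, with differences of -3.18, -2.82, -2.31 and -3.18, did not, at 0.085, 0.102, 0.0842 and 0.0803. No gene passed over all arrays or with array 1 alone in the lists of B lineage, T and NK, erythroid, megakaryocyte, osteoclast, osteoblast, pericyte and Schwann cell genes, nor in those of integrins and laminins, of the BMP, Notch, hedgehog and combined FGF, PDGF and IGF pathways, of glycolysis and of immediate early genes.

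**Figure D4:**
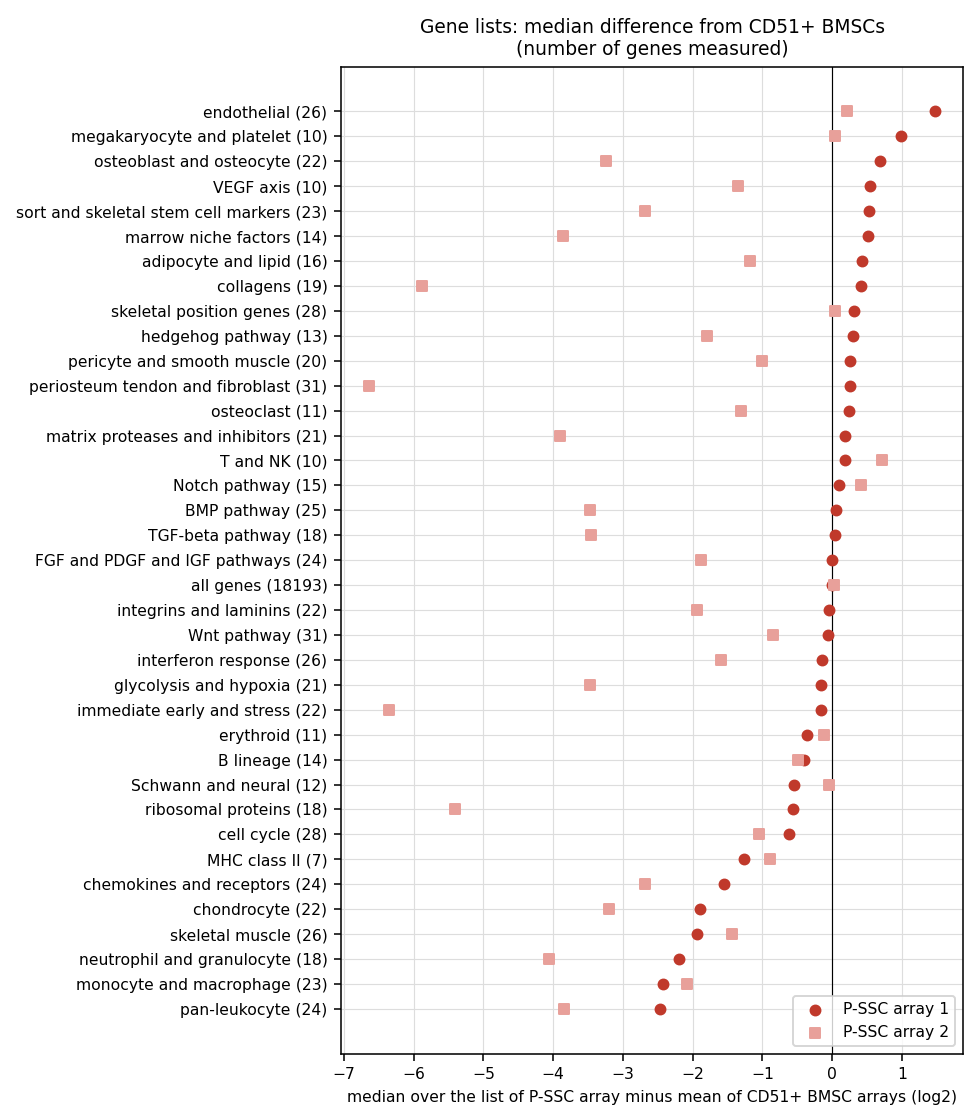
Median over each gene list of the log2 difference from the mean of the CD51+ BMSC arrays, for P-SSC array 1 (circles) and P-SSC array 2 (squares), with the number of genes measured in parentheses. On array 1 the endothelial list lies at 1.47 and the pan-leukocyte list at -2.47, while on array 2 the ribosomal protein list lies at -5.40 and the collagens at -5.88.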

How the data were processed

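RNA of sorted cells was hybridised to Affymetrix mouse expression arrays. The values the authors deposited are on a log2 scale, obtained by RMA in Partek GS and R, and the submitters' processing notes name limma without a version. The scanner files and a detection call per probe set were not used here, and the number of arrays limits the precision.

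The deposited values were used as they stand, with no filter on signal. After 64 control probe sets were left out, 45037 were tested with limma 3.58.1 in R 4.3.3, with a mean per population over all 11 arrays (5 residual and 2.65 prior degrees of freedom), so that all populations share one spread per probe set. P-values were adjusted by Benjamini-Hochberg over all probe sets, and a probe set passed under 0.05. The fit for P-SSC array 1 alone left out P-SSC array 2 (4 residual degrees of freedom) and takes the lone array to vary like the other populations.

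Symbols came from the platform's annotation table: 34945 tested probe sets carry 1 symbol, 932 several and 9160 none. Each gene is represented by whichever of its probe sets with 1 symbol had the highest average signal. Gene lists (38, with 731 genes, of which 669 were measured) came from general knowledge, and members and lists were chosen with earlier results of these data known. Named genes are the sort genes and genes the study names, up to 12 per direction with the largest differences that passed in each fit, and up to 6 members per described list, or all members of the sort, VEGF, niche and sex-linked lists. Comp, Mpo, Myf5, Pax7, S100a8, S100a9, Sox5, Sox9 and Tnnt3 lie outside this rule and were chosen after their values were seen. Bglap has no such probe set. Promoters came from RefSeq, GRCm38.p6. The fit was tested on simulated data.

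Alternatives were unadjusted p-values, the 4 compared arrays alone, dropping the dimmer probe sets, quantile normalization, median centring, robust estimation with a trend, a block for the array number, a test on 1 probe set for each gene, a minimum log2 difference of 1, array weights, leaving out each array, leaving out both second arrays and, added after seeing the data, keeping the control probe sets.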

Additional observations from a re-analysis of the deposited data

Results flagged for a closer look

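On P-SSC array 2 the hybridization control transcripts of the bacterial gene bioB, which are added to the sample after labelling and are not part of the comparison, read higher than on any other array. The probe set at the 3' end read 13.76, that at the 5' end 13.68 and that in the middle 13.84, where the highest other array read 12.31, 12.04 and 12.52.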

How the results depend on the processing

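Of the 268 probe sets that passed (2 higher, 266 lower), 0 remained in number when the 4 compared arrays were fitted alone and 0 with array weights. The counts were 161 (159 lower) without probe sets at or below the median signal, 124 (121 lower) with quantile normalization, 162 (1 higher, 161 lower) with 1 probe set per gene, and 142 with the array number as a replicate block (0 higher, 142 lower). With median centring and with trend and robust estimation 4 were higher. Without sample 2 of P-SSCs and BM-SSCs 13315 passed (6174 higher, 7141 lower), and 10146 had an unadjusted p under 0.05 (5116 higher, 5030 lower). Leaving out 1 array at a time gave 0 to 24882 probe sets, 0 to 14946 higher and 0 to 9936 lower: 0 without either CD51+ array, 2 without either CD45+ array, 46 without either Osx+ array, 593 without either BM-SSC array, 216 without P-SSC array 2 and 24882 without P-SSC array 1. The causes were not tested. The array numbers did not pair the compared populations: deviations of P-SSCs by array number correlated with those of CD51+ BMSCs at -0.0145, although they correlated with those of BM-SSCs at 0.784.

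Of 34 named genes that passed, 33 still passed with median centring, 29 with the replicate block, 28 with trend and robust estimation, 27 of the 29 left without the dimmer probe sets, 16 with quantile normalization, 23 without P-SSC array 2, 12 without either Osx+ array, 1 without either CD45+ array, and 0 without either CD51+ array, with array weights or with the 4 arrays alone. The signs of these 34 did not turn. On leaving out 1 array they could not, because none of these genes overlapped between the P-SSC and CD51+ arrays. Signs of genes that had not passed over all arrays turned with the P-SSC array used, and the lowest and highest differences on leaving out 1 array, from P-SSC array 2 alone and P-SSC array 1 alone, were -4.51 and 0.02 for Mpo, -3.73 and 0.50 for Sox9, -8.37 and 0.69 for Comp, -2.45 and 1.48 for Vegfc, -5.95 and 0.12 for Itgav, -6.63 and 0.36 for Prrx1, and -5.88 and 1.28 for Lepr. They were -5.71 and 1.65 for Cxcl12, -4.47 and 1.72 for Vcam1, -5.43 and 0.46 for Kitl, -3.87 and 2.89 for Fabp4, -5.08 and 3.03 for Mmp13, and -5.68 and 1.60 for Col1a1. They were -0.68 and 3.39 for Ptprb, -0.04 and 3.19 for Mmrn2, -0.23 and 2.73 for Cdh5, -0.37 and 1.89 for Nrp2, -1.14 and 3.70 for Kng1, -0.86 and 3.30 for Grem1, -2.95 and 3.62 for Adipoq, and -2.51 and 3.31 for Tnc. No detection call was used, so differences between genes near the lower end of the signal cannot be told from background.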

Other observations

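A set of 14 genes, chosen after their values were seen, read over 2.5 log2 units above the mean of the CD51+ arrays on P-SSC array 1 and over 4 units above it on array 2. All 14 were higher on P-SSC array 2 than on array 1, which the larger cutoff on array 2 favours. All were also higher on BM-SSC array 2 than on the CD51+, CD45+ and Osx+ arrays and on BM-SSC array 1. The array of Nes+ BMSCs, marrow cells sorted on Nestin, read above both CD51+ arrays for all 14 too. It read above BM-SSC array 2 for Tsks (8.999 against 8.748) and Tmprss2 (6.034 against 5.992). Osx+ array 1 read above Osx+ array 2 for all 14. The 14 genes read 7.95 to 12.74 on P-SSC array 2, 5.56 to 10.51 on P-SSC array 1, 5.99 to 12.12 on BM-SSC array 2 and 2.37 to 6.6 on the CD51+ arrays. Shmt1, the cytosolic serine hydroxymethyltransferase of one-carbon metabolism, read 10.51 and 12.74 on the P-SSC arrays, 6.39 and 6.60 on the CD51+ arrays, and 8.96 and 11.84 on the BM-SSC arrays. None of the 14 passed over all arrays.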
